A study of Arabidopsis thaliana with 18 samples.

Results

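Glutamate receptor-like (GLR) genes encode the plant relatives of the ionotropic glutamate receptors of animal nerve cells. Their products are cation channels of the plasma membrane and inner membranes that can pass calcium and are opened or modulated by amino acids. In Arabidopsis leaves they are known for the electrical and calcium waves that spread from a wound, and for calcium entry after microbial signals. The genes fall into clades, and the first digit of each name gives the clade. They were represented here by the probe sets annotated to a single gene whose symbol was GLR and a number, or ATGLR1.2. That rule found 8 probe sets for 8 genes among the 22746 probe sets of the array, and 13513 of those carried 1 named gene. RefSeq lists 20 genes in the family. Another probe set is shared by GLR2.2 and GLR2.3 and was left out, and the other 10 genes had no probe set named to 1 gene and are not analysed here.

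Transcripts were measured on the 1-colour Affymetrix ATH1 array in the Wassilewskija (Ws-2) accession of Arabidopsis thaliana, as 18 arrays in 6 groups of 3. The groups were potassium-starved, caesium-treated and control plants, each as shoots and as roots, so each of the 2 treatments has its own comparison with control in either tissue. All plants were at growth stage 3.90, in a growth room at 22 °C with 80% humidity and a 16 h day, on a medium of 0.8% agar, 1% sucrose and a diluted Murashige and Skoog salt mix. Caesium is an alkali metal that enters plants through potassium transport systems. The caesium dose, how long either treatment lasted and how potassium was left out were not given in the sources used here. The labels do not say whether replicates are separate cultures, and the p-values therefore reflect the spread among these samples alone, which may be technical. Shoots and roots are mixed tissues, and fewer cells of a type cannot be told apart from less RNA per cell.

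Values are the authors' deposited MAS5 signal, an intensity on a linear scale, and each probe set has its own binding strength, so levels are compared between samples and not between genes. A probe set was taken as unmeasured in a group where all 3 arrays lay below the 40th percentile of their own array, a signal of 21.6 to 29.4. A test was made for each probe set above that percentile on 3 or more arrays of the fit. Differences are log2 signal ratios ± standard error from limma, and a probe set was called at a Benjamini-Hochberg adjusted p below 0.05 over all probe sets tested. Within groups, arrays correlated at 0.933 to 0.964 over all probe sets, and no pair of arrays held identical values. All 29 photosynthesis genes used as shoot markers, 20 of the plastid genome and 9 nuclear, had a lower signal in control roots than control shoots, and all 3 root markers were higher.

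By these criteria GLR1.4, GLR3.3 and GLR3.6 were measured in all 6 groups and ATGLR1.2 in 5, every group but control shoots. GLR2.7 was measured in the 3 shoot groups only, and GLR3.5 in control shoots, potassium-starved roots and control roots. GLR2.8 exceeded the percentile on 3 of 18 arrays, all from potassium-starved shoots. GLR2.9 exceeded it on 0 of 18, with a highest signal of 3.07. The 3 clade II genes with a probe set here, GLR2.9, GLR2.8 and GLR2.7, are immediate neighbours in the gene order of RefSeq assembly TAIR10.1.

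**Figure D1:**
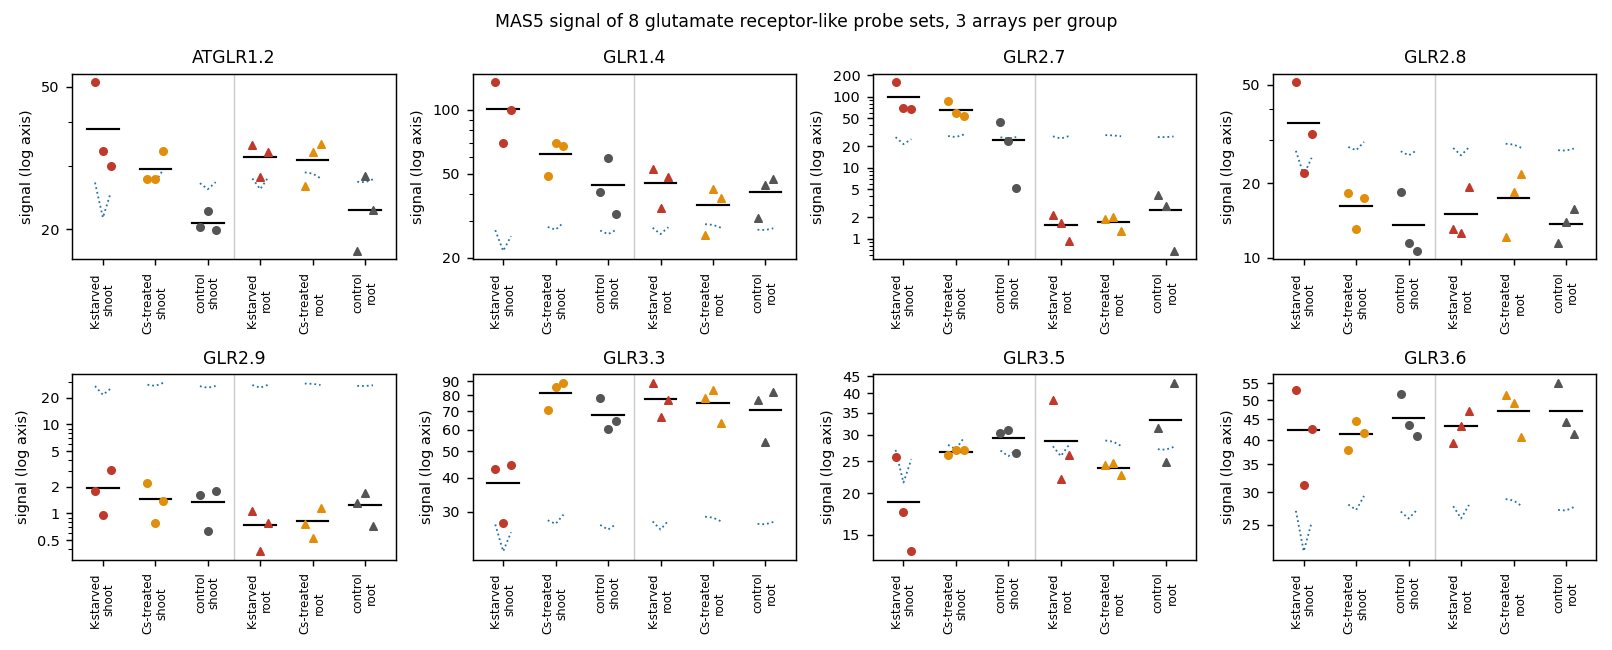
Signal of the 8 GLR probe sets on each array (log axis), with circles for shoots, triangles for roots, a black bar for each group's mean and a dotted line for the 40th percentile of each array. GLR2.7 lies above that percentile in all potassium-starved and caesium-treated shoots and far below it in all roots, and GLR3.3 is lower in the 3 potassium-starved shoots than in every other array.

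In shoots of potassium-starved plants 4 GLR transcripts rose and 1 fell. GLR1.4, GLR2.7, ATGLR1.2 and GLR2.8 had the higher signal in potassium-starved shoots, set against control shoots, by between 0.83 and 2.37 on the log2 scale, and GLR3.3 was lower by 0.84. GLR3.6 did not pass the test. GLR3.5 and GLR2.9 were not tested, since too few of the 9 shoot arrays measured them. The same comparison called 28.1% of all 14665 probe sets tested, 11.4% higher and 16.7% lower, and the arrays of both groups did not overlap for 42.7% of probe sets and for 5 of the 6 tested GLR genes. The median difference was 1.01 over the 6 GLR probe sets and -0.14 over all. GLR2.8 passed the filter only through the 3 potassium-starved arrays where it was high, so it had to differ, and the count and median hold it only as a description. ATGLR1.2 passed it through potassium-starved and caesium-treated arrays alone, so a rise over control was favoured.

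GLR2.7 (AT2G29120) belongs to a group of clade II channels needed for the full calcium rise that bacterial flagellin peptide triggers in leaves. Its signal was 159, 70.5 and 68.1 in potassium-starved shoots, against 44.1, 24.0 and 5.24 in control shoots. Every starved array was above every control array, although only 1 of the 3 control arrays exceeded the 40th percentile, and on the log2 scale the control arrays spread more widely (SD 1.58, against 0.69 in starved arrays). The difference was 2.37 ± 0.648 (95% interval 0.94 to 3.80, adjusted p = 0.0217, n = 3 arrays each by limma), or 5.16-fold. Part of that size came from control replicate 3, the lowest array: without it the difference was 1.49 ± 0.413 (adjusted p = 0.0371). The call was lost without potassium-starved replicate 1 (1.97 ± 0.721, adjusted p = 0.0749), and a pseudocount of 16 gave 1.55.

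GLR2.8 (AT2G29110), its neighbour and a channel of the same flagellin-responsive group, had a signal of 51.0, 22.0 and 31.6 in potassium-starved shoots, against 18.5, 11.4 and 10.6 in control shoots. The groups did not overlap, and no control array measured the gene. Potassium-starved shoots were at least 1.24-fold higher, with the control arrays set at their 40th percentile (geometric means of 32.9 and 26.6, and 13.1 as measured in the control). That bound was not tested, and the starved array at 22.0 lay under the 26.6. The log2 difference of the signals as deposited was 1.33 ± 0.407 (limma adjusted p = 0.0341), and 0.76 with a pseudocount of 16. The gene passed the filter only through the starved arrays and had to differ, so this p is given only as a description. The call was lost without control replicate 2 or 3 (adjusted p = 0.0711 and 0.102), without caesium-treated replicate 3 (0.0502), and the gene was not tested without any 1 of the starved arrays. GLR2.9 (AT2G29100), the third gene of the run, stayed at 1.79, 0.968 and 3.07 in potassium-starved shoots, against 1.62, 0.635 and 1.79 in control shoots, and so was unmeasured in both.

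GLR1.4 (AT3G07520), a clade I member that forms a methionine-gated channel when expressed in frog oocytes, had a signal of 135, 70.0 and 99.7 in potassium-starved shoots, against 41.1, 59.4 and 32.3 in control shoots. All 6 arrays measured it, and the lowest starved array was above the highest control array. The difference was 1.19 ± 0.292 (95% interval 0.55 to 1.84, limma adjusted p = 0.0139), or 2.29-fold. By replicate number it was 1.71, 0.24 and 1.63, so replicate 2 showed little of it. Without control replicate 3 it was 0.99 ± 0.311 and missed the threshold (adjusted p = 0.0556).

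ATGLR1.2 (AT5G48400), a clade I channel known for D-serine-gated calcium entry in pollen tubes, had a signal of 51.4, 33.1 and 30.0 in potassium-starved shoots, against 20.2, 22.6 and 19.9 in control shoots. The groups did not overlap and no control array measured the gene. Potassium-starved shoots were at least 1.39-fold higher with the control at the percentile (geometric means of 37.1 and 26.6, and 20.8 as measured in the control). In shoots the gene exceeded the percentile only on potassium-starved and caesium-treated arrays, so the filter favoured a higher signal than control under either treatment. The log2 difference of 0.83 ± 0.267 (limma adjusted p = 0.0405) missed the threshold in 10 of the alternatives tried, with adjusted p between 0.0560 and 0.119, among them leaving out any 1 of the control or caesium-treated shoot arrays.

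GLR3.3 (AT1G42540), which with GLR3.6 carries the wound-triggered electrical signal between leaves, was the 1 member that fell. Its signal was 43.1, 27.4 and 44.7 in potassium-starved shoots, against 78.4, 60.3 and 64.6 in control shoots. The groups did not overlap, and the gene was above the 40th percentile of its arrays in both. It stood at the 45.6 to 53.3 percentile in starved and the 60.2 to 65.1 percentile in control shoots, with the starved array at 27.4 nearest to the 40th. It fell by 0.84 on the log2 scale (SE 0.226, 95% interval -1.35 to -0.34, limma adjusted p = 0.020), and it was lower in starved shoots at all 3 replicate numbers (-0.86, -1.14 and -0.53). The call was lost without control replicate 1 (-0.73, adjusted p = 0.0738) or control replicate 3 (-0.87, adjusted p = 0.0525).

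GLR3.6 (AT3G51480), the partner of GLR3.3 in wound signalling, had a signal of 52.9, 31.1 and 42.7 in potassium-starved shoots, against 51.7, 43.6 and 40.9 in control shoots. The groups overlapped, and the difference of -0.13 ± 0.230 had a 95% interval of -0.64 to 0.38 (limma adjusted p = 0.710). GLR3.5 (AT2G32390), a clade III channel with splice forms sent to mitochondria and chloroplasts, had a signal of 25.7, 17.6 and 13.4 in potassium-starved shoots, against 30.3, 31.0 and 26.5 in control shoots. All starved values were below their arrays' percentile, and the gene was not tested in shoots.

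The deposited arrays share a trimmed mean but not a median: the array median was 37.2 ± 3.6 in potassium-starved, 44.5 ± 1.33 in caesium-treated and 41.3 ± 1.24 in control shoots (SD, n = 3 each). Shifting every array to a common median moved the median difference of all probe sets between potassium-starved and control shoots to 0.01, and the share of higher calls to 53.3%, against 40.6% as deposited. All 5 GLR calls were made under that shift too, with differences of 2.52 for GLR2.7, 1.48 for GLR2.8, 1.35 for GLR1.4, 0.99 for ATGLR1.2 and -0.69 for GLR3.3. GLR3.6, not called either way, turned to 0.03. Leaving out control shoot replicate 3 reduced the 5 calls to 1, GLR2.7.

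**Figure D2:**
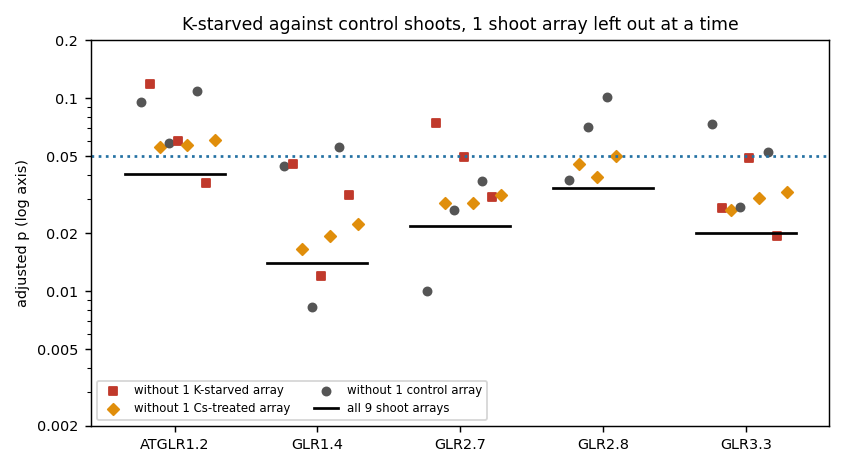
Adjusted p (log axis) of the 5 GLR calls between potassium-starved and control shoots, with each of the 9 shoot arrays left out in turn; the black line is the value with all 9 arrays and the dotted line is 0.05. Leaving out control replicate 3 moves 4 of the 5 above 0.05, and GLR2.8 has no value without a potassium-starved array because it then fails the filter.

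Markers of leaf senescence moved with these genes. All 4 tested (SAG29, SAG101, WRKY53 and WRKY6) rose in potassium-starved shoots, beside 11.4% of all probe sets. Their summed signal there was 509 to 706, against 70.2 to 174 in control shoots. Of 29 shoot markers 7 fell, beside 16.7% of all probe sets. Their summed signal was 37622 to 44408 in potassium-starved and 48780 to 54059 in control shoots. The summed signal of the 3 root markers overlapped, at 78.7 to 937 in potassium-starved and 203 to 1253 in control shoots. The 3'/5' signal ratio of the actin control probe sets, a sign of RNA integrity, was 5.52 to 6.11 in potassium-starved shoots, against 3.26, 5.96 and 5.99 in control shoots. The part of these in the GLR differences was not tested.

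**Figure D3:**
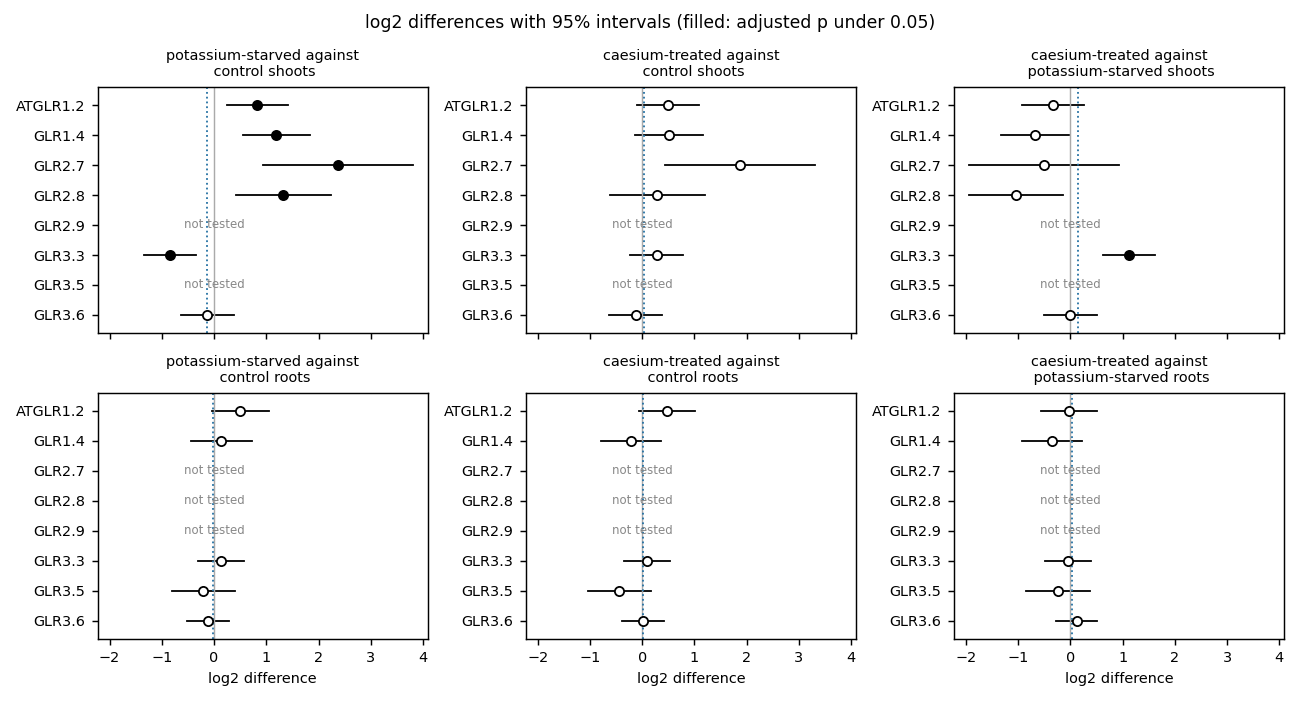
Log2 signal ratio of each tested GLR probe set in the treatment comparisons, with 95% intervals from limma, filled points at an adjusted p below 0.05 and a blue dotted line at the median of all probe sets tested. In shoots, potassium-starved against control has 4 filled points above 0 and 1 below, and no point is filled in roots. GLR2.8 was unmeasured in caesium-treated and control shoots, so its points are drawn from signals below the percentile.

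Caesium-treated shoots, set against the same 3 control arrays, gave no GLR call by limma, where 1 of the 6 tested members had an unadjusted p below 0.05. The comparison called 0.566% of all probe sets, and the arrays did not overlap for 25% of them and for 2 of the 6. The median difference was 0.39 over the 6 members and 0.03 over all probe sets. GLR2.7 had a signal of 86.7, 59.0 and 52.9 in caesium-treated shoots, against 44.1, 24.0 and 5.24 in control shoots. These arrays did not overlap, and the difference was 1.87 ± 0.648 (95% interval 0.44 to 3.3, limma adjusted p = 0.207). With the replicate number as a block, which the shoot arrays bear out as a pairing, it was called at an adjusted p of 0.0348, and the difference was positive at all 3 replicate numbers (0.97, 1.29 and 3.33). Replicate 3 of the control carried much of it: without that array it was 0.99 ± 0.413 (adjusted p = 0.443).

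ATGLR1.2 also did not overlap, at 27.7, 27.7 and 33.0 in caesium-treated shoots, against 20.2, 22.6 and 19.9 in control shoots, and its difference of 0.49 ± 0.267 was not called (limma adjusted p = 0.447). GLR1.4, at 48.7, 69.4 and 67.8 in caesium-treated shoots, overlapped the control (0.51 ± 0.292, adjusted p = 0.476). GLR3.3 had a signal of 70.9, 86.1 and 88.9 in caesium-treated shoots, against 78.4, 60.3 and 64.6 in control shoots, which overlapped, with a difference of 0.28 (95% interval -0.22 to 0.78, adjusted p = 0.654). GLR3.6 differed by -0.13 (adjusted p = 0.870), and GLR2.8 was unmeasured in both groups. GLR3.5 stood at 26.1, 27.0 and 27.1 in caesium-treated shoots, below the percentile on all 3 arrays.

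The markers moved in caesium-treated shoots too. The summed signal of the 4 senescence markers was 291 to 349 in caesium-treated shoots, against 70.2 to 174 in control shoots. Of the 4, 1 (WRKY6) rose, beside 0.566% of all probe sets called (median difference of the 4, 1.68). The summed shoot markers were at 41394 to 46970 in caesium-treated and 48780 to 54059 in control shoots, with 0 of 29 called, and the summed root markers overlapped, at 165 to 997 in caesium-treated and 203 to 1253 in control shoots. The part of these in the GLR2.7 difference was not tested.

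Set against each other, caesium-treated and potassium-starved shoots differed in GLR3.3. Its signal averaged 81.9 ± 9.69 in caesium-treated and 38.4 ± 9.56 in potassium-starved shoots (SD, n = 3 each), without overlap, a difference of 1.12 ± 0.226 (95% interval 0.62 to 1.62, limma adjusted p = 0.00762). It was the 1 call among the 6 tested members, in a comparison that called 26.8% of all probe sets tested. Those called higher made up 18% of all tested and 67.0% of the calls. This comparison shares its potassium-starved arrays with the one against control and is not a separate observation of them. GLR3.3 was called there without any 1 of the 9 shoot arrays.

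GLR2.8 averaged 16.2 ± 2.76 in caesium-treated and 34.9 ± 14.8 in potassium-starved shoots, and GLR1.4 averaged 62.0 ± 11.5 and 102 ± 32.5 in the same groups. Neither overlapped, and neither was called. In this comparison the arrays did not overlap for 44.5% of all probe sets and for 3 of the 6 tested members. GLR1.4 differed by -0.68 ± 0.292 (adjusted p = 0.108), and it was called with arrays at a common median. GLR2.8 was unmeasured in caesium-treated shoots and entered the fit only through the potassium-starved arrays, so it had to differ, and its adjusted p of 0.0826 (0.0325 with the replicate block) is given only as a description. GLR2.7 averaged 66.2 ± 18.0 in caesium-treated and 99.3 ± 51.9 in potassium-starved shoots, and these overlapped. Its difference of -0.50 ± 0.648 had an interval of -1.93 to 0.93, wide enough to hold both no difference and a large one. ATGLR1.2 differed by -0.34 (adjusted p = 0.374) and GLR3.6 by 0.0015 with an interval of -0.51 to 0.51.

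In roots no GLR gene was called in any treatment comparison, and none of the 5 tested members had an unadjusted p below 0.05 by limma. The share of all 14432 probe sets called was 1.09% for potassium-starved against control roots, 0% for caesium-treated against control roots and 4.54% for caesium-treated against potassium-starved roots. Of the 5, the groups did not overlap for 0, 1 and 0 members in those comparisons, and for 22.3%, 15.3% and 30.1% of all probe sets.

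ATGLR1.2 had the largest difference among the 5 against control, with a signal of 34.3, 27.9 and 33.0 in potassium-starved roots and 26.3, 33.0 and 34.6 in caesium-treated roots, against 17.4, 28.1 and 22.6 in control roots. Both overlapped the control, at 0.50 ± 0.244 (95% interval -0.03 to 1.04, adjusted p = 0.302) for potassium starvation and 0.48 ± 0.244 (adjusted p = 0.565) for caesium. GLR3.3, the gene that fell in potassium-starved shoots, had a signal of 88.4, 66.7 and 77.1 in potassium-starved roots, against 76.6, 54.1 and 82.1 in control roots. The difference was 0.14 with an interval of -0.30 to 0.58 (adjusted p = 0.746).

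GLR3.5 had a signal of 24.3, 24.7 and 22.7 in caesium-treated roots, all below the percentile, against 31.5, 24.9 and 43.0 in control roots. It was the 1 root member whose arrays did not overlap, by a narrow gap, and the difference of -0.44 ± 0.276 was not called (adjusted p = 0.650). GLR1.4 averaged 45.0 ± 9.49 in potassium-starved, 35.4 ± 8.72 in caesium-treated and 40.8 ± 8.69 in control roots. GLR3.6 averaged 43.3 ± 3.81 in potassium-starved, 47.2 ± 5.65 in caesium-treated and 47.0 ± 7.18 in control roots (SD, n = 3 each). Neither differed by more than 0.36 on the log2 scale in any pair of root groups.

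Between tissues, 1 of the 7 members tested over all 18 arrays was called. It was GLR2.7, with a signal of 4.1, 2.9 and 0.675 in control roots, against 44.1, 24.0 and 5.24 in control shoots, without overlap, as for 61.4% of all probe sets and 1 of the 7. It was lower in control roots by limma (adjusted p = 0.00164), in a comparison that called 53.1% of all 16397 probe sets, 22.5% lower. GLR2.7 passed the filter of this fit through shoot arrays alone, most of them treated, so a lower signal in roots was favoured. Its p is given only as a description. All control root arrays and 2 of the 3 control shoot arrays were below the 40th percentile, which exceeded the mean of the control shoots on the log scale, so no size is given for the difference. GLR2.7 was also unmeasured in potassium-starved and caesium-treated roots (highest signal 2.16 and 2.03). The other 6 differed by -0.10 to 0.15, with adjusted p from 0.668 to 0.920.

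The difference in the potassium response between roots and shoots was tested as an interaction and gave 0 calls among the 7 by limma, with 4 at an unadjusted p below 0.05 and 8.37% of all probe sets called. The response in roots minus that in shoots was 0.98 ± 0.310 for GLR3.3 (adjusted p = 0.0597), -2.78 ± 1.04 for GLR2.7 (0.105), -1.05 ± 0.415 for GLR1.4 (0.123) and -1.21 ± 0.494 for GLR2.8 (0.137). GLR2.8 was unmeasured in every group but potassium-starved shoots, through which alone it passed the filter, so its value was set by that choice. GLR2.7 was unmeasured in all root groups and passed the filter through shoot arrays alone. The calls in shoots and their absence in roots are therefore not shown to differ between tissues. For caesium the interaction gave 0 calls by limma, none at an unadjusted p below 0.05, and 0.14% of all probe sets called.

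Ordered by mean signal, neighbouring groups mostly overlapped. The exceptions were GLR1.4 in potassium-starved above caesium-treated shoots, GLR2.8 in potassium-starved shoots above the next group, and GLR3.3 in control shoots above potassium-starved shoots, which were the lowest of the 6 groups. GLR2.7 stood higher in caesium-treated shoots than in control shoots, and higher in control shoots than in control roots. GLR3.5 was higher in caesium-treated shoots than in caesium-treated roots, both unmeasured. Arrays did not overlap for 44.5% of all probe sets between caesium-treated and potassium-starved shoots, and for 42.7% between potassium-starved and control shoots. The share was 25% between caesium-treated and control shoots and 61.4% between control roots and control shoots. For the GLR2.8 and GLR3.5 pairs it was not counted.

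Of the genes that act around these channels, the calmodulin-like (CML) calcium sensors had named probe sets. These bind calcium and pass its signal on. Of 8 such genes 7 were tested in shoots, and 4 rose and 0 fell in potassium-starved against control shoots, with a median of 1.2, against -0.14 over all probe sets and beside the 28.1% called. CML41 had a signal of 1186, 1299 and 880.2 in potassium-starved shoots, against 29.8, 59.5 and 28.1 in control shoots (4.91 ± 0.394, limma adjusted p = 7.44e-05). CML38 had 244, 256 and 96.3 in potassium-starved shoots, against 24.6, 32.9 and 11.9 in control shoots (3.1 ± 0.481, adjusted p = 0.0018). Neither gene's groups overlapped. Across the alternatives the count of calls was 2 to 4. CML37, 1 of the 4, passed the filter only through the potassium-starved arrays where it was high, so it had to differ. The count and median hold it only as a description. CML43, also called, exceeded the percentile mostly on potassium-starved arrays. It was unmeasured in control shoots and so at least 1.47-fold higher in potassium-starved shoots.

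None of the 7 sensors was called in caesium-treated against control shoots by limma, with 1 (CML41) at an unadjusted p below 0.05. In caesium-treated against potassium-starved shoots 4 fell, beside the 26.8% of all probe sets called there (2 to 4 across the alternatives). CML37, 1 of those 4, was unmeasured in caesium-treated shoots and had to differ by the filter. CML41 averaged 76.6 in caesium-treated and 1122 in potassium-starved shoots (-3.98 ± 0.394, adjusted p = 0.000443), and CML38 averaged 32.5 in caesium-treated and 199 in potassium-starved shoots (-2.58 ± 0.481, adjusted p = 0.00552). Of the 6 tested in roots, 0 were called for either treatment against control by limma, with CML41 at an unadjusted p below 0.05 in both. In caesium-treated against potassium-starved roots 1 of the 6 fell, beside 4.54% of all probe sets. It was CML23 (limma adjusted p = 0.0476, missed in 10 of 17 alternatives), unmeasured in caesium-treated roots and so at least 1.35-fold lower, a bound not tested. It passed the root filter through the potassium-starved arrays and 1 control array, so a lower caesium-treated signal was favoured. The call is given only as a description. The potassium response of CML41 and CML38 was lower in roots than in shoots by the interaction (7 tested, 2 called, beside 8.37% of all probe sets).

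**Figure D4:**
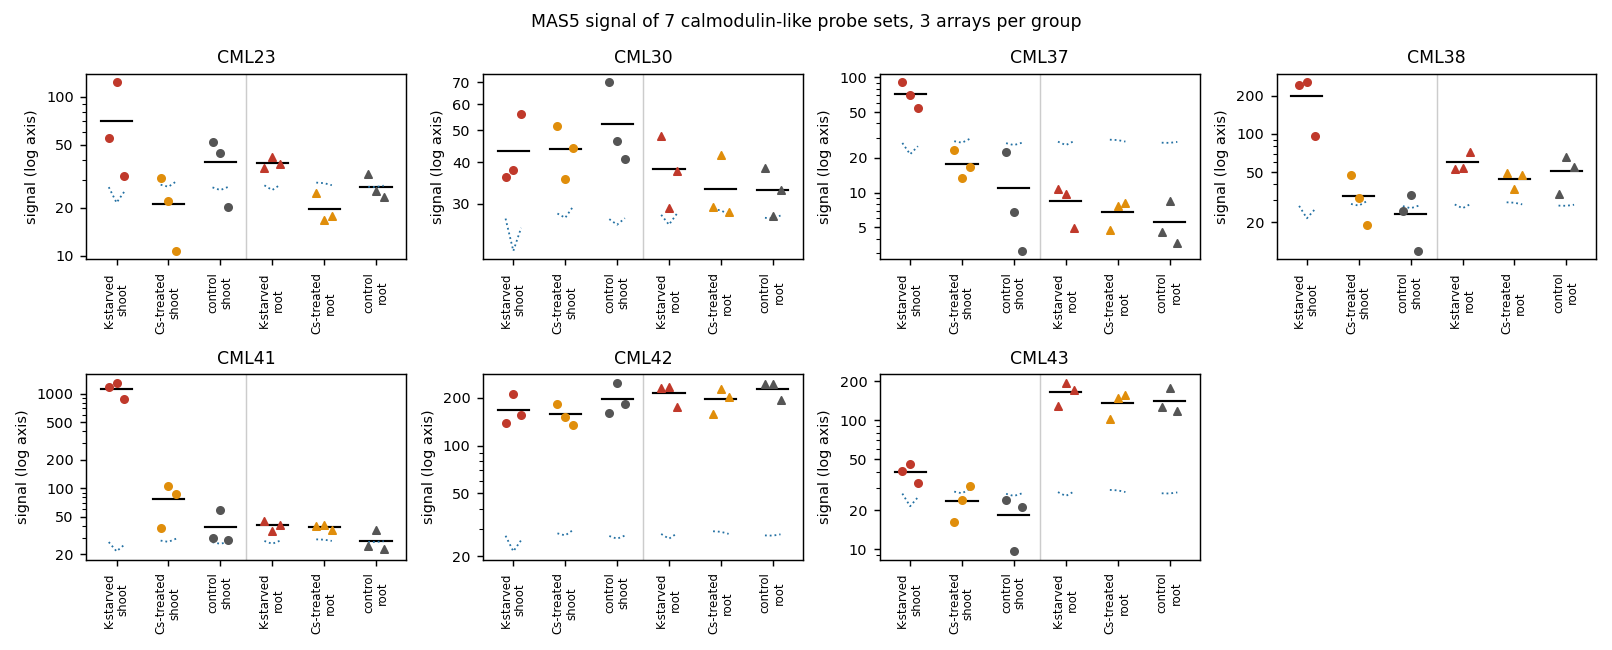
Signal of 7 calmodulin-like probe sets on each array (log axis), drawn as for the GLR genes. CML41 and CML38 are higher in the 3 potassium-starved shoots than in every control shoot, by more than the spread of either group.

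The sodium/calcium exchanger-like gene AT1G53210 was the only calcium pump or exchanger with a named probe set and was not called in any treatment comparison, with differences from control of 0.08 and -0.33 in potassium-starved and caesium-treated shoots. AT4G33150, which encodes the bifunctional enzyme that breaks lysine down to glutamate and aminoadipate semialdehyde, rose by 0.64 ± 0.214 in potassium-starved shoots (limma adjusted p = 0.0466, lost in 11 alternatives). It differed by 1.10 in caesium-treated shoots (adjusted p = 0.0529, and 0.0243 with the replicate block). Cyclic nucleotide-gated channels, other calcium channels, calcium-dependent kinases, glutamate synthesis and amino acid permeases, proton pumps with respiratory burst oxidases, and jasmonate synthesis had 0 probe sets named to 1 gene and are not analysed here.

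The probe sets most like each called member were ranked by Pearson's r of log2 signal among 8993 with 1 gene, over the 18 arrays, which share their groups, tissue contrast and scaling. They were SBT3.3, AT4G34480 and AER for GLR2.7 (0.960 to 0.954), AT1G52380, AT5G58100 and AT1G45160 for GLR3.3 (0.933 to 0.922), and AT4G02340, AT4G34150 and AT2G42360 for GLR1.4 (0.897 to 0.886). For ATGLR1.2 they were AT5G42050, AT4G22530 and nad1 (0.881 to 0.845), and for GLR2.8 AT1G34420, AT1G66880 and AT4G00955 (0.844 to 0.836). Over the 9 shoot arrays the leading genes were AT2G41730 for GLR2.7 (0.957), AT5G26710 for GLR3.3 (0.987), AT2G19150 for GLR1.4 (0.991), AT1G34750 for ATGLR1.2 (0.966) and AT5G58640 for GLR2.8 (0.970). The next 2 were AT4G20830 and WRKY6 (0.954 and 0.951), AT5G42140 and BPM3 (0.983 and 0.982), DLAH and AT5G18470 (0.961 and 0.960), AT4G02940 and AT3G50280 (0.959 and 0.955), and AT5G11760 and AT5G55050 (0.966 and 0.965), in the same order of members. The GLR members were left out of the ranking beforehand, so it does not show how alike they were to each other.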

How the data were processed

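The authors deposited 1 linear signal intensity for each probe set and array, computed with MAS5 according to the submitters' processing notes. The version, settings and detection calls of MAS5 were not given in the sources used here. Each array had been scaled to a common trimmed mean. After 64 control probe sets were left out, 22746 remained, named from the supplied platform annotation (1 gene for 13513, several for 503, none for 8730) and matched to RefSeq TAIR10.1 (13436 of the 13513, and 8 of the 8 GLR genes). Groups and replicate numbers came from the sample titles.

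Deposited signals were log2-transformed without a pseudocount and fitted with limma 3.58.1 in R 4.3.3 (lmFit, eBayes with trend), each tissue with its 9 arrays, and all 18 arrays for control roots against shoots and the interactions. Tests were two-sided, with Benjamini-Hochberg adjustment over all probe sets tested. The fit was tested on simulated data for potassium-starved against control. In shoots it called 31 of 100 probe sets changed by 1 on the log2 scale and 86 of 100 changed by 2. In roots it called 53 and 93 of 100. It also called 0 unchanged probe sets in shoots and 8 in roots. Many changes near 1 were thus missed where few probe sets changed. All other probe sets were left unchanged in these simulated data, whereas the shoot comparison itself called 28.1% of those tested. The adjustment is less strict when more probe sets differ, so the simulated shares for shoots do not carry over to that comparison. Precision is limited by the number of arrays, which have no read depth. Low MAS5 signals are noisy on a log scale, since mismatch probes are subtracted. Every GLR probe set with 1 gene was named, as were up to 2 called genes per direction of each list by smallest p, and the 3 genes most like each called member. The members and lists were chosen with earlier results of these data known. Alternatives were a pseudocount of 16, no filter, quantile normalization, a common array median, array weights, other sets of arrays, each array left out and the replicate number as a block.

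Deviations from the group means correlated between same-numbered shoot arrays at 0.204 to 0.357 for potassium-starved with control, 0.361 to 0.556 for caesium-treated with control, and 0.173 to 0.362 for caesium-treated with potassium-starved, so the numbers were taken to pair the shoot arrays. The main fits held the group only and did not use this pairing, which entered as the replicate block among the alternatives. The check asked that every correlation of a pair of groups exceed 0.1. Between root groups, or between tissues in all but 1 pair of groups, it did not hold (lowest -0.055). Between root groups the correlations ran from -0.053 to 0.415 and were mostly positive.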

Additional observations from a re-analysis of the deposited data

Results flagged for a closer look

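2 calcium sensor genes of the 7 tested had a potassium response that differed between tissues by the interaction test of limma over all 18 arrays. That test called 8.37% of all 16397 probe sets. The response in roots minus that in shoots was -4.36 on the log2 scale for CML41 (adjusted p = 7.57e-05) and -2.83 for CML38 (adjusted p = 0.00923). In roots CML41 averaged 40.5 in potassium-starved and 28.0 in control plants, and CML38 averaged 60.0 in potassium-starved and 51.4 in control plants.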

How the results depend on the processing

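Of 1034 values of single GLR genes under alternatives, 1001 kept their side of the threshold, 68 of them uncalled values that took another sign. A call was lost in 18 and gained in 15, and no called value reversed. The 5 GLR calls in potassium-starved against control shoots became 3 with only the arrays of those 2 groups, and 1 to 4 when each array was left out (1 without control replicate 3, 2 without potassium-starved replicate 1). A fit with only those 2 groups has fewer arrays to estimate the spread. In caesium-treated against control shoots, 0 calls became 1 (GLR2.7) with the replicate block and 1 with array weights. In caesium-treated against potassium-starved shoots, 1 call became 3 with quantile normalization, 3 with a common array median, 2 with the replicate block, 2 with array weights and 2 with all 18 arrays in 1 fit; the cause was not tested. GLR2.8, which had to differ by the filter, is 1 of the calls in each of these. There the share of higher calls over all probe sets was 39.5% with a common median and 55.4% with quantile normalization, against 67.0% as deposited.

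For the potassium response in roots against shoots, 0 calls became 1 (GLR2.7) with a pseudocount, 2 (GLR3.3 and GLR2.7) with the replicate block, and 1 (GLR1.4) with array weights. Leaving out single arrays gave 0 to 1 (GLR3.3 at adjusted p = 0.0381 without potassium-starved shoot replicate 3, GLR2.7 at 0.0368 without control root replicate 3). The replicate block changed no other GLR call: the counts were 5 in potassium-starved against control shoots and 0 in the root comparisons. Root arrays did not pass the check for pairing by number, though their correlations were mostly positive, so whether the block carries a design there is not settled. The 40th percentile limits what low signals can show: GLR2.8, GLR2.9 and, in roots, GLR2.7 lie at or below it on most arrays.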

Other observations

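Genes near the GLR2.9, GLR2.8 and GLR2.7 run, on either side, that had a tested probe set named to 1 gene were also examined. AT2G29065 differed by -0.17 ± 0.235 in potassium-starved against control shoots (limma adjusted p = 0.627), AT2G29170 by 0.49 ± 0.651 (adjusted p = 0.608) and AT2G29180 by -0.14 (adjusted p = 0.741). None of these 3 was called for either treatment against control in shoots. In roots AT2G29065 was tested and not called, and AT2G29170 and AT2G29180 were not tested. AT2G29070 and AT2G29150, which lie nearer to the run, were tested in roots only and were not called there.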
